A study of Oryctolagus cuniculus with 6 samples.

Results

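The genes described here are the receptors, laminins, integrins and adhesive glycoproteins of the ECM-receptor interaction pathway (ocu04512 in the deposited annotation) in rabbit tissue. They are the rows annotated to that pathway after its 12 collagens, its 4 thrombospondins and SPP1 were left out, which gave 42 of the 59 pathway rows in a table of 16367 genes. The rule reads the annotation and gene names and no measured value, but it was drawn up with earlier results of these data known. RNA from 6 samples was sequenced, 3 titled test and 3 titled control. The series title names perichondral tissue, the connective tissue sheath of cartilage, while each sample is labelled as subcutaneous tissue from rabbits kept in an animal room. No label says what was done to the test animals, or gives the strain, age or sex of the animals in either group. Nothing says that the samples came from separate animals, so p-values measure the spread between these samples, which may be technical.

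Cells hold on to their surroundings through receptors that span the membrane. Many of these are integrins, pairs of 1 alpha and 1 beta subunit, and each pair recognises particular proteins: some bind laminins, some collagens, and some the Arg-Gly-Asp (RGD) motif of fibronectin, vitronectin and related proteins. Laminins are trimers of an alpha, a beta and a gamma chain and form the core of the basement membrane beneath endothelium, epithelium and around muscle, fat and nerve fibres. Syndecans, dystroglycan and CD44 are further receptors that bind matrix through sugars. Fibronectin and tenascin-C are matrix proteins best known for their increase in healing and remodelling connective tissue.

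Read totals ran from 17820537 to 21199562 in test libraries and from 21923246 to 23105606 in control libraries. The 13 mitochondrially encoded genes took 6.97 to 7.78% of the counts in test libraries and 10.1 to 13.3% in control libraries. The fibroblast marker list summed to 17716 to 20836 CPM (read counts scaled to a common library size) in test libraries and 29400 to 41875 CPM in control libraries. Collagens made up much of that sum. COL1A2 and COL1A1, also among the pathway genes left out, averaged 5800 and 2990 CPM in test libraries. In control libraries these 2 genes averaged 10994 and 5107 CPM. Cartilage genes were present in both groups, at 3955 to 5387 CPM in test libraries and 2246 to 4471 CPM in control libraries. Fat cell genes summed to 45.5 to 54.7 CPM in test libraries and 78.0 to 166 CPM in control libraries, with LEP at 0 in each. Epithelial genes stayed at 7.90 to 9.28 CPM in test libraries and 5.09 to 7.86 CPM in control libraries, with DSP at 0 in each.

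Among the 42 genes, tenascin-C, syndecan-1 and the integrin subunits ITGA8, ITGA11 and ITGB5 rose in test tissue, while the laminin chain LAMA2, von Willebrand factor and the integrin subunits ITGA6 and ITGB4 fell. Of the 37 members with enough reads to be tested, 5 were higher and 4 were lower in test tissue (edgeR quasi-likelihood test, adjusted p under 0.05 over all 12740 genes tested), and the other 28 did not pass. Over all genes tested 13% were called, 6.84% higher and 6.15% lower, against 24.3% of the tested members. The median log2 fold change, test over control, was 0.01 over tested members and -0.004 over all genes tested. The 3 test values lay entirely to one side of the 3 control values in 18 of the 37 tested members, 9 above and 9 below. Over all genes tested this held for 35% (18.4% above and 16.6% below). The number of members called moved with the library left out. It was 3 when test replicate 1 or 2 was dropped, 2 when test replicate 3 was, 4 when control replicate 3 was and 15 when control replicate 2 was. TNC and ITGA6 were called in each of these fits.

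**Figure D1:**
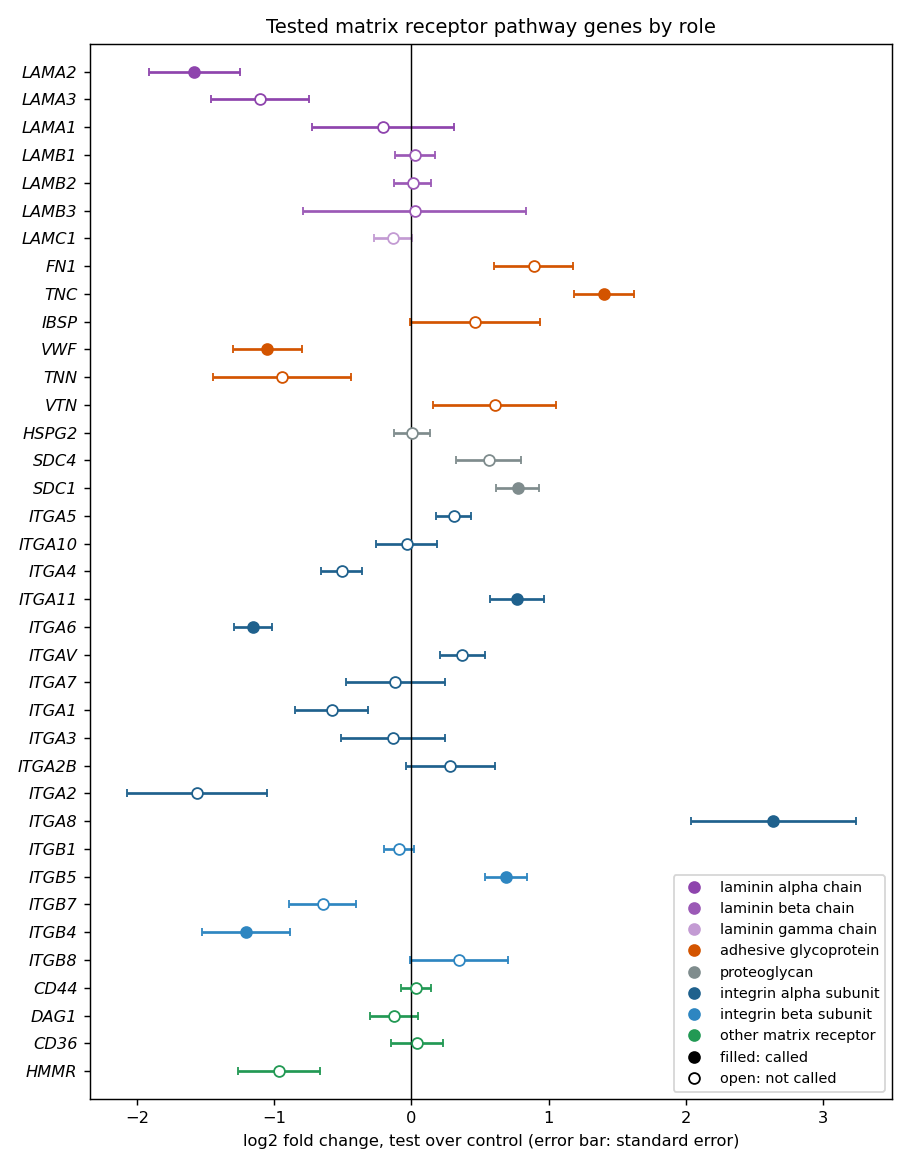
Log2 fold change of each tested member, test over control, with its standard error as the bar, coloured by role; filled points passed edgeR's adjusted p under 0.05. The 9 filled points are split, 5 to the right of 0 and 4 to the left, and 28 open points lie on both sides.

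Of the 7 laminin chains, 1 fell and 6 were not called, and the one that fell was an alpha chain. The share called, 14.3%, was near the 13% over all genes tested. LAMA2 (ENSOCUG00000009427), the alpha chain of the basement membrane around muscle and nerve fibres, had 4.24, 7.29 and 3.75 CPM in test libraries against 17.6, 10.1 and 18.2 CPM in control libraries. Each test value lay below each control value, and control replicate 2 was the control library nearest to them. Its log2 fold change was -1.58 ± 0.33 (SE here and below), a 3.00-fold lower level in test tissue (edgeR adjusted p = 0.0143). The call ended without test replicate 1 (adjusted p = 0.0679), test replicate 3 (0.0727) or control replicate 3 (0.0614). Beside it, 9 of 10 skeletal muscle markers rose (5 without test replicate 2, 6 without test replicate 1 or 3 or control replicate 3), with sums of 62.0 to 80.6 CPM in test libraries and 7.86 to 9.29 CPM in control libraries. Schwann cell markers summed to 40.4 to 56.2 CPM in test libraries and 39.04 to 61.0 CPM in control libraries, with SOX10 at 0 in each and none of the 4 tested called by edgeR, DESeq2 or limma-voom (1 at an unadjusted p under 0.05). The fibroblast and fat cell lists, given above, summed lower in every test library than in any control library. Per 100 reads of an endothelial marker list there were 0.582, 1.08 and 0.486 LAMA2 reads in test libraries and 1.66, 1.37 and 1.93 in control libraries. The part of these cell markers in the LAMA2 values was not tested. LAMA3, the alpha chain of the laminin that anchors epithelia, had 4.58, 2.36 and 3.89 CPM in test libraries and 8.80, 5.64 and 8.83 CPM in control libraries. Those values did not overlap either, and the gene did not pass (log2 fold change -1.10 ± 0.36, edgeR adjusted p = 0.0677), although it did without control replicate 2 (0.0373) and with DESeq2 (0.0248). LAMA1, the alpha chain of early embryonic basement membranes, averaged 2.20 ± 0.90 CPM in test libraries and 2.54 ± 0.91 CPM in control libraries (mean ± SD, n = 3 each, here and below), and the groups overlapped.

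Neither the gamma chain nor any of the 3 beta chains was called. LAMB1, a beta chain of many laminins, had 658.8, 617.8 and 673.9 CPM in test libraries and 510.8, 757 and 647.6 CPM in control libraries, and the control values enclosed the test values (log2 fold change 0.03 ± 0.14, edgeR adjusted p = 0.928). LAMC1, the gamma chain shared by most laminins, had 205, 196 and 248 CPM in test libraries and 215, 221 and 277 CPM in control libraries (log2 fold change -0.14 ± 0.14, edgeR adjusted p = 0.561). LAMB2, the beta chain of mature muscle and vessel basement membranes, had 146, 137 and 141 CPM in test libraries and 149, 115 and 157 CPM in control libraries (log2 fold change 0.01 ± 0.13, edgeR adjusted p = 0.977). LAMB3, the epithelial partner of LAMA3, had 33, 65 and 9 reads in test libraries and 20, 23 and 81 reads in control libraries, too scattered to place a difference (log2 fold change 0.02 ± 0.81). Within each library, shares were taken of the reads of the 7 laminin chains described here. The 3 alpha chains together made up 1.04, 1.16 and 1.01% in the test group and 3.30, 1.63 and 2.58% in the control group. Every test library had the lower share (exact permutation test, two-sided p = 0.1, which 3 against 3 cannot go below; 0.155 after adjustment over the 17 shares and ratios compared in this way). The beta chains took 77.8 ± 1.65% of the same laminin reads in test libraries and 74.7 ± 3.34% in control libraries, which overlapped.

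In the adhesive glycoproteins, 1 of 6 tested members rose and 1 fell (33.3% called, against 13% over all genes tested). TNC (ENSOCUG00000011500), tenascin-C, a large glycoprotein that binds fibronectin and several integrins, had 1426, 1546 and 1585 CPM in test libraries and 396, 810 and 519 CPM in control libraries. The test values were close to each other and all above the highest control value, that of control replicate 2. TNC rose 2.64-fold (log2 fold change 1.40 ± 0.22, edgeR adjusted p = 0.00403), and its log2 fold change stayed between 1.20 and 1.74 whichever library was left out. FN1, fibronectin, the main ligand of the integrin pair ITGA5 and ITGB1, had 25505, 21558 and 30284 CPM in test libraries and 7667, 20812 and 13185 CPM in control libraries. This gene alone took 2.53, 2.11 and 2.97% of all reads in test replicates 1 to 3 and 0.829, 1.96 and 1.35% in control replicates 1 to 3. The groups did not overlap, yet the highest control library came close to the lowest test library, and FN1 did not pass (log2 fold change 0.89 ± 0.29, edgeR adjusted p = 0.0676). It passed when control replicate 1 (0.0404) or control replicate 2 (0.00349) was dropped, with no filter on low counts (0.0353), with limma-voom (0.0433) and with the correction for gene length (0.0453), while DESeq2 did not call it (0.132).

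VWF (ENSOCUG00000006783), von Willebrand factor, which endothelial cells store and release to capture platelets, had 118, 105 and 118 CPM in test libraries and 334, 140 and 235 CPM in control libraries. All test values were lower and within a narrow range, and the control values differed widely. VWF fell 2.07-fold (log2 fold change -1.05 ± 0.25, edgeR adjusted p = 0.0237). Its call ended without test replicate 1 (adjusted p = 0.0872), test replicate 2 (0.106), test replicate 3 (0.0894) or control replicate 3 (0.0734), and after a correction for gene length in the genome (0.0658). In bulk tissue, fewer cells of a type and less RNA per cell cannot be told apart. The 8 endothelial marker genes found in the table summed to 729, 674 and 771 CPM in test libraries and 1062, 741 and 938 CPM in control libraries, and the groups overlapped. None of the 8 was at 0 and their median log2 fold change was -0.31. EdgeR called 0 of them at the adjusted threshold, and 3 had an unadjusted p under 0.05 (DESeq2 and limma-voom also called 0). Without control replicate 2, 4 of them were called lower. For every 100 reads of that list there were 16.2, 15.6 and 15.3 VWF reads in test libraries and 31.5, 18.9 and 25.02 in control libraries, so VWF was lower relative to the list in each test library (two-sided exact permutation p = 0.1, the smallest possible; 0.155 adjusted).

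**Figure D2:**
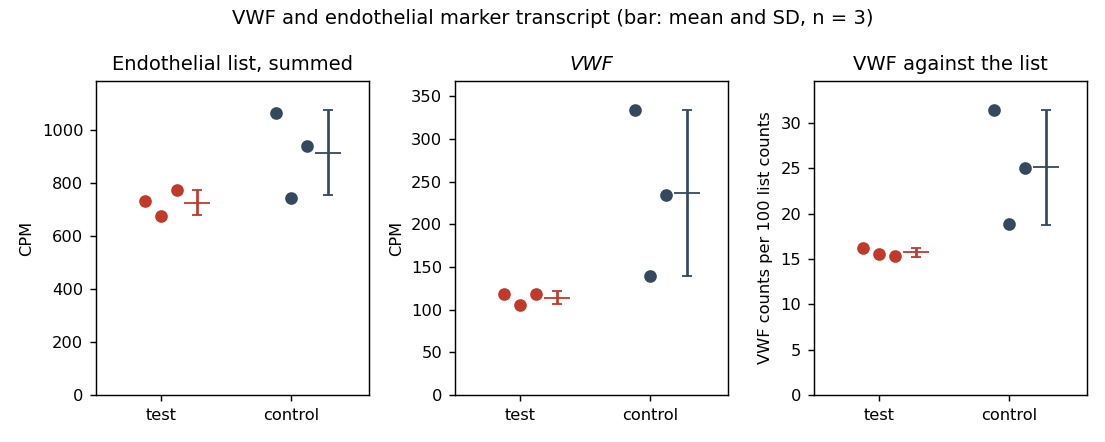
Summed endothelial marker level in CPM (left), VWF in CPM (middle) and VWF reads per 100 reads of the endothelial list (right) in test and control libraries; points are libraries and bars the mean and SD of 3. The marker sums overlap between groups, at 674 to 771 CPM in test and 741 to 1062 CPM in control libraries, while VWF and its ratio to the list do not.

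The other adhesive glycoproteins were not called. IBSP, bone sialoprotein, a mineral-binding protein of bone and calcified cartilage, had 222, 331 and 200 CPM in test libraries and 48.4, 286 and 210 CPM in control libraries. Only control replicate 1 stood apart, and the groups overlapped (log2 fold change 0.47 ± 0.47, edgeR adjusted p = 0.559). The 8 other genes of the osteoblast marker list summed to 672 to 687 CPM in test libraries and 88.4 to 302 CPM in control libraries. Most of each list sum was SPP1 alone, at 654, 662 and 660 CPM in test libraries and 74.4, 281 and 215 CPM in control libraries. In that list 3 of the 6 tested genes rose, and 1 to 3 did when a library was left out. VTN, vitronectin, had 67, 53 and 77 reads in test libraries and 44, 39 and 69 in control libraries, and TNN, tenascin-N, had 98, 51 and 34 reads in test libraries and 199, 74 and 159 in control libraries. Both overlapped between the groups.

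Of the 3 proteoglycans tested, both syndecans had test values wholly above control values and 1 of them was called. Over all genes tested 18.4% lay wholly above in this way and 13% were called in either direction. SDC1 (ENSOCUG00000025956), syndecan-1, a heparan sulfate carrier known from epithelium and plasma cells and also induced in healing tissue, had 49.9, 45.9 and 52.3 CPM in test libraries and 25.8, 34.6 and 26.2 CPM in control libraries. It rose 1.71-fold (log2 fold change 0.77 ± 0.16, edgeR adjusted p = 0.0138), and every test value was above every control value. The call ended without control replicate 3 (adjusted p = 0.06) and without test replicate 1, 2 or 3 (0.0571, 0.0522 and 0.073). SDC4, syndecan-4, a partner of integrins at the adhesion site, had 134, 133 and 130 CPM in test libraries and 54.4, 126 and 88.1 CPM in control libraries. Test libraries were nearly level and just above control replicate 2, and SDC4 did not pass (log2 fold change 0.56 ± 0.24, edgeR adjusted p = 0.15) except without control replicate 2 (0.00973). HSPG2, perlecan, the large heparan sulfate proteoglycan of basement membranes, averaged 497 ± 50.4 CPM in test libraries and 495 ± 68.2 CPM in control libraries (log2 fold change 0.01 ± 0.13, edgeR adjusted p = 0.985).

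Of the 12 integrin alpha subunits, 2 rose, 1 fell and 9 were not called (25% called, against 13% over all genes tested). The RGD-binding subunits all had positive log2 fold changes, and 1 of the 4 passed. ITGA8 (ENSOCUG00000014334), whose pair with ITGB1 binds nephronectin, fibronectin and tenascin-C and which is known from smooth muscle and other mesenchymal cells, had 2.55, 7.19 and 5.0 CPM in test libraries and 0.331, 1.05 and 0.977 CPM in control libraries. It rests on few reads, 45, 143 and 104 in test libraries and 8, 23 and 22 in control libraries, and the groups did not overlap. ITGA8 rose 6.23-fold (log2 fold change 2.64 ± 0.60, edgeR adjusted p = 0.0202), and the call ended without test replicate 2 (0.111), test replicate 3 (0.0788) or control replicate 3 (0.0567). In the smooth muscle and pericyte marker list 3 of 10 genes fell and the other 7 were not called, and its sum was 637 to 741 CPM in test libraries and 680 to 945 CPM in control libraries. Leaving out control replicate 2 made it 6 of the 10 that fell. DESeq2 called 6 lower and 1 higher, and limma-voom called 2 lower and 0 higher.

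The fibronectin receptor subunit ITGA5 averaged 186 ± 7.28 CPM in test libraries and 150 ± 21.4 CPM in control libraries without overlap, and did not pass (log2 fold change 0.31 ± 0.13, edgeR adjusted p = 0.14). ITGAV, which pairs with several beta subunits and binds vitronectin and latent TGF-beta, averaged 30.6 ± 4.42 CPM in test libraries and 23.7 ± 1.16 CPM in control libraries, again without overlap and not called (log2 fold change 0.37 ± 0.17, edgeR adjusted p = 0.168). ITGA2B, the platelet subunit, had 75, 139 and 133 reads in test libraries and 108, 98 and 125 reads in control libraries, and the groups overlapped.

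Among the laminin-binding alpha subunits, ITGA6 fell and ITGA3 and ITGA7 were not called. ITGA6 (ENSOCUG00000000403), which pairs with ITGB1 or ITGB4 on endothelium, epithelium and nerve sheath cells, had 22.6, 28.1 and 25.7 CPM in test libraries and 54.8, 56.3 and 59.3 CPM in control libraries. Both groups were tight and far apart, and the p was the smallest of any member. ITGA6 fell 2.23-fold (log2 fold change -1.16 ± 0.14, edgeR adjusted p = 0.00116). Its log2 fold change stayed between -1.23 and -1.0 over the 15 alternatives and leave-one-out fits, and it was called in each. Against 100 reads of the endothelial list there were 3.10, 4.17 and 3.33 ITGA6 reads in test libraries and 5.16, 7.60 and 6.32 in control libraries, which did not overlap (two-sided exact permutation p = 0.1, the smallest possible). ITGA7, the laminin receptor of muscle, had 15.5, 15.4 and 16.9 CPM in test libraries and 23.2, 7.02 and 21.6 CPM in control libraries (log2 fold change -0.12 ± 0.36). That member lay within the control range while 9 of 10 skeletal muscle markers rose. ITGA3 averaged 6.37 ± 2.47 CPM in test libraries and 6.98 ± 2.57 CPM in control libraries.

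Among the 4 collagen-binding alpha subunits 1 rose. ITGA11 (ENSOCUG00000017726), the collagen receptor of fibroblasts, had 52.1, 51.2 and 55.0 CPM in test libraries and 22.7, 40.6 and 29.6 CPM in control libraries. Test values were nearly the same and all above the highest control value, again that of control replicate 2. ITGA11 rose 1.71-fold (log2 fold change 0.77 ± 0.20, edgeR adjusted p = 0.0312), with the call lost without test replicate 1, 2 or 3 (adjusted p = 0.0921, 0.0976 and 0.117) or control replicate 3 (0.0995). This was measured beside a fibroblast marker list of which 6 of 8 genes fell, COL1A1 and COL1A2 among them, and 1 rose. Without a test library or control replicate 3, 4 fell. ITGA10, the collagen receptor of chondrocytes, averaged 108 ± 12.8 CPM in test libraries and 111 ± 36.5 CPM in control libraries (log2 fold change -0.04 ± 0.22). ITGA2, the collagen receptor of platelets and epithelium, had 30, 42 and 51 reads in test libraries and 271, 67 and 97 in control libraries. Most of its difference came from control replicate 1, and it did not pass (log2 fold change -1.57 ± 0.51, edgeR adjusted p = 0.0707), though it did without control replicate 2 (0.0238) and with DESeq2 (0.0184). Dropping control replicate 1 left a log2 fold change of -0.81 (adjusted p = 0.299). ITGA1 had 6.39, 9.41 and 12 CPM in test libraries and 11.7, 16.1 and 13.8 CPM in control libraries, with 1 test value just above the lowest control value.

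ITGA4, the alpha subunit of lymphocytes and monocytes that binds fibronectin and VCAM1, had 61.4, 53.4 and 56.2 CPM in test libraries and 97.9, 77.7 and 67.6 CPM in control libraries. The groups did not overlap, and ITGA4 missed the threshold narrowly (log2 fold change -0.51 ± 0.15, edgeR adjusted p = 0.0518). It passed without control replicate 2 (0.0491), with DESeq2 (0.0252), with DESeq2's size factors in edgeR (0.0499), with no filter on low counts (0.048) and with a mean of at least 5 CPM required (0.0423). Its gut-homing partner ITGB7 had 16.0, 19.4 and 15.2 CPM in test libraries and 37.1, 19.6 and 22.7 CPM in control libraries, with control replicate 1 high, and did not pass (log2 fold change -0.65 ± 0.25, edgeR adjusted p = 0.111) except without control replicate 2 (0.0398). The 3 T and NK cell markers found in the table summed to 52.1, 48.5 and 35.8 CPM in test libraries and 106, 49.3 and 46.3 CPM in control libraries, also highest in control replicate 1. EdgeR called 0 of those 3 (0 at an unadjusted p under 0.05, and 0 with DESeq2 or limma-voom), none was at 0, and their part in the ITGA4 and ITGB7 values was not tested.

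**Figure D3:**
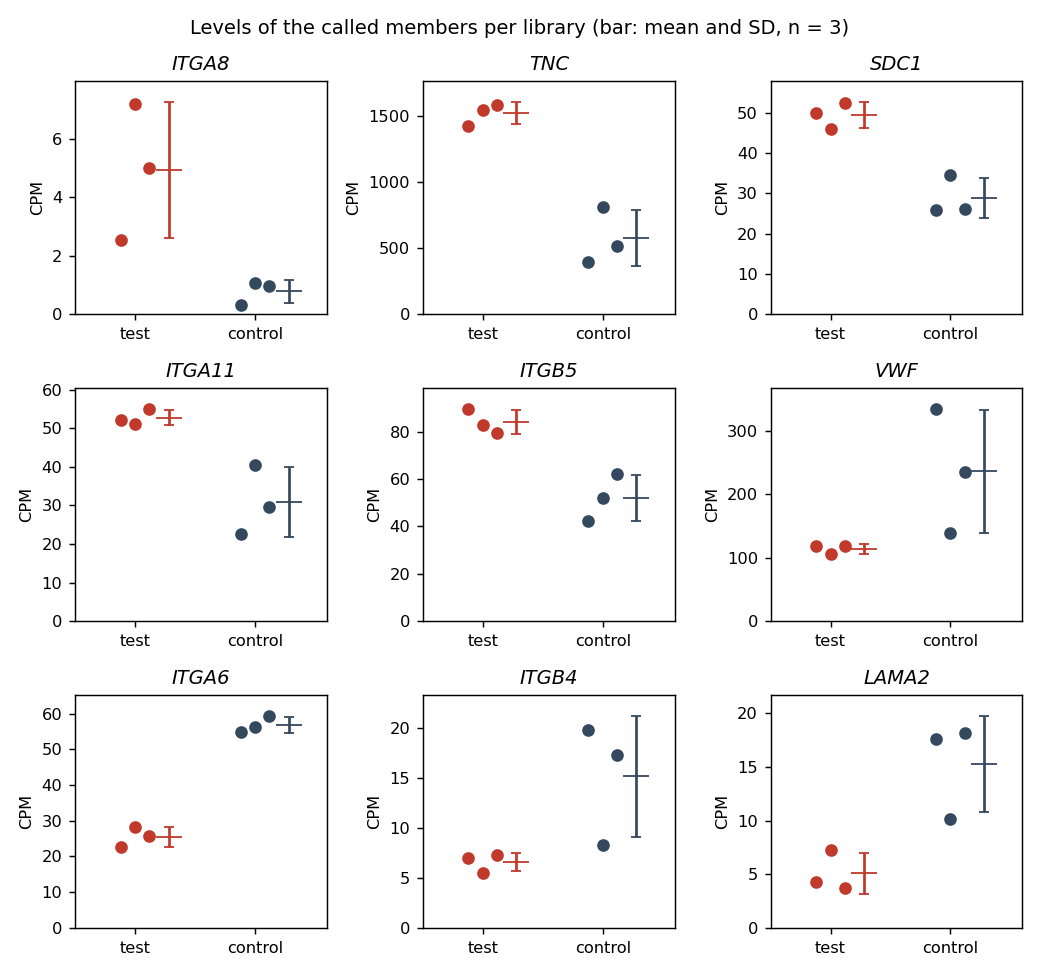
CPM of the 9 called members in each library, test left and control right, with the mean and SD of 3 as the bar; axes start at 0. In each panel the 3 test points lie wholly above (ITGA8, TNC, SDC1, ITGA11, ITGB5) or below (VWF, ITGA6, ITGB4, LAMA2) the 3 control points.

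Of the 5 tested integrin beta subunits, 1 rose and 1 fell (40% called, against 13% over all genes tested). ITGB1, the partner of most alpha subunits named here, averaged 941 ± 42.9 CPM in test libraries and 1002 ± 77.9 CPM in control libraries (log2 fold change -0.09 ± 0.11, edgeR adjusted p = 0.626). ITGB5 (ENSOCUG00000014602), which pairs with ITGAV to bind vitronectin, had 89.6, 83.0 and 79.5 CPM in test libraries and 42.3, 51.9 and 62.0 CPM in control libraries. It rose 1.61-fold without overlap (log2 fold change 0.69 ± 0.15, edgeR adjusted p = 0.0171), and the call ended without test replicate 1, 2 or 3 (adjusted p = 0.0775, 0.073 and 0.0639). ITGB4 (ENSOCUG00000014951), the long-tailed beta subunit that pairs with ITGA6 in the hemidesmosomes of epithelium and is also found on endothelium and nerve sheath, had 6.96, 5.53 and 7.26 CPM in test libraries and 19.9, 8.35 and 17.4 CPM in control libraries. All test values were lower, control replicate 2 being close to them. Per 100 reads of the endothelial list there were 0.954, 0.821 and 0.941 ITGB4 reads in test libraries and 1.87, 1.13 and 1.85 in control libraries. The epithelial list was low in both groups, as given above, with DSP at 0. ITGB4 fell 2.31-fold (log2 fold change -1.21 ± 0.32, edgeR adjusted p = 0.035). Its call ended in 6 of 15 other fits, more than for any other of the 9 called members: with limma-voom (0.0791), without test replicates 1, 2 or 3 (0.104, 0.136 and 0.102) and without control replicate 1 or 3 (0.0701 and 0.113). ITGB8 averaged 6.71 ± 1.33 CPM in test libraries and 5.29 ± 2.22 CPM in control libraries, and the groups overlapped.

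Because shares within a library do not depend on how libraries are scaled, the makeup of integrin transcript within the pathway was also compared. The totals were reads of the 12 alpha and 6 beta subunits among the members. Integrins outside the pathway, such as ITGB2 and ITGAX, were not counted in them. RGD-binding subunits made up 46.2, 44.9 and 44.0% of alpha subunit reads in test libraries and 38.0, 31.4 and 37.3% in control libraries. Most reads of this class were from ITGA5, which was not called. ITGA5 had 3331, 3798 and 3689 reads in test libraries and 3731, 2762 and 3805 in control libraries. Laminin-binding subunits made up 9.59, 9.74 and 9.10% in test libraries and 17.5, 13.8 and 17.0% in control libraries. Of these only ITGA6 was called, while ITGA3 and ITGA7 had log2 fold changes of -0.13 and -0.12. ITGA4 made up 12.6, 10.3 and 11.03% in test libraries and 20.5, 15.6 and 12.6% in control libraries, and its nearest test and control libraries almost touched. The collagen-binding subunits overlapped, at 31.6, 35.0 and 35.9% in test libraries and 24.0, 39.1 and 33.1% in control libraries. ITGB5 took 8.46, 8.20 and 7.27% of beta subunit reads in test libraries and 4.05, 4.41 and 5.75% in control libraries, and ITGB1 89.2 ± 0.70% in test libraries and 90.9 ± 1.39% in control libraries. The ITGB1 shares also almost touched, at 89.9% in test replicate 3 and 90.1% in control replicate 1. Shares of the same total are not independent, because a rise in some lowers others. The RGD-binding, laminin-binding, ITGA4, ITGB5 and ITGB1 shares did not overlap between groups (two-sided exact permutation p = 0.1 for each, the smallest possible; 0.155 adjusted over 17), while the collagen-binding share did (p = 0.8).

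**Figure D4:**
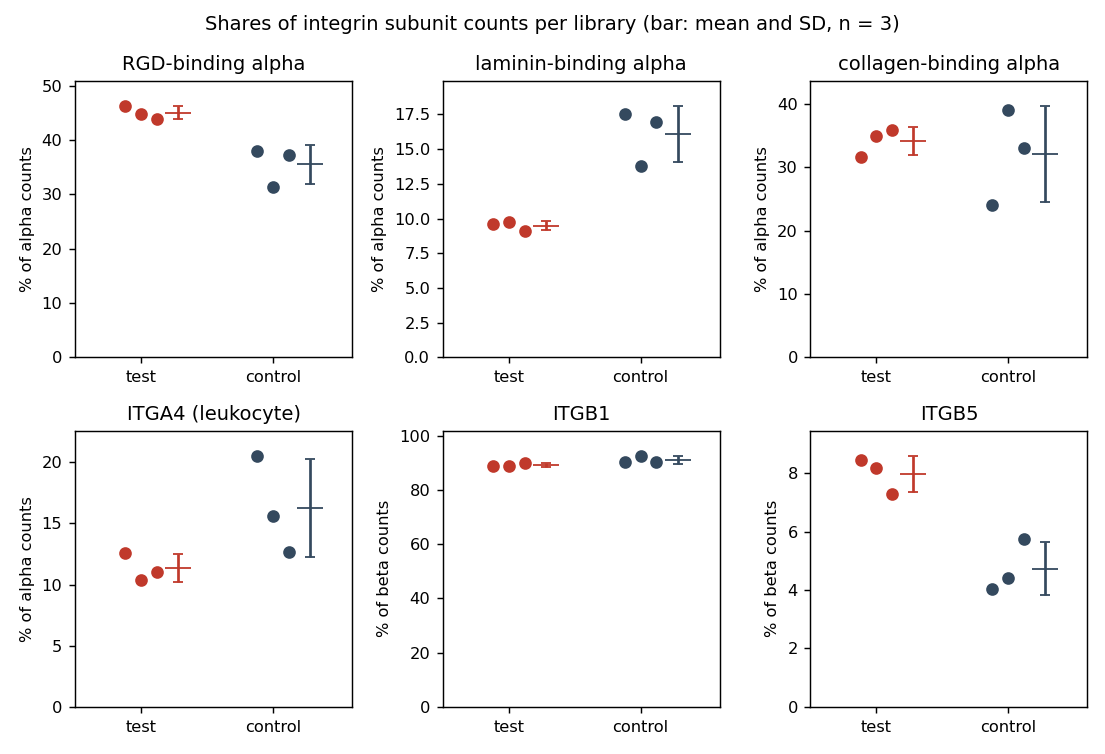
Share of the members' integrin alpha reads taken by each ligand class and of their beta reads taken by ITGB1 and ITGB5, in percent, per library. Integrins outside the pathway are not counted. Test is left and control right, and bars are the mean and SD of 3. RGD-binding subunits are at 44.0 to 46.2% in test and 31.4 to 38.0% in control libraries, and laminin-binding subunits at 9.10 to 9.74% in test and 13.8 to 17.5% in control libraries.

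Of the 4 tested receptors that are neither integrins nor syndecans edgeR called 0, and limma-voom also called 0. HMMR, 1 of these 4, had an unadjusted p under 0.05 and was called lower with DESeq2. CD44, the hyaluronan receptor, averaged 452 ± 32.1 CPM in test libraries and 442 ± 28.9 CPM in control libraries (log2 fold change 0.03 ± 0.11, edgeR adjusted p = 0.88). DAG1, dystroglycan, which ties laminin to the cytoskeleton, averaged 90.3 ± 5.30 CPM in test libraries and 98.6 ± 23.9 CPM in control libraries (log2 fold change -0.13 ± 0.17, edgeR adjusted p = 0.672). CD36, a scavenger receptor of fat cells, macrophages and capillaries, averaged 13.9 ± 1.27 CPM in test libraries and 13.5 ± 1.08 CPM in control libraries. HMMR, a hyaluronan-binding protein of the mitotic spindle, had 8.04, 8.15 and 5.53 CPM in test libraries and 19.2, 13.8 and 9.45 CPM in control libraries. Its values did not overlap and it missed the threshold (log2 fold change -0.97 ± 0.30, edgeR adjusted p = 0.0582), passing without control replicate 3 (0.047), with no filter on low counts (0.0493) and with DESeq2 (0.0193).

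The 5 untested members had almost no reads. ITGB6 had 4 reads over the test group and 0 over the control group, and the synaptic vesicle protein SV2C had 0 in the test group and 4 in the control group. SV2A had 13 reads over the test group and 7 over the control group, and SV2B had 14 over the test group and 30 over the control group. The platelet glycoprotein GP5 had 10 reads over the test group and 8 over the control group. Control replicate 3 held 28 of the 30 SV2B reads of the control group.

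Control replicate 2 was the control library nearest to the test group in 12 of the 18 members without overlap, control replicate 3 in 5 (ITGA5, ITGA4, ITGAV, ITGB5 and HMMR) and control replicate 1 in 1 (ITGA6). These are 66.7, 27.8 and 5.56% of the 18, while over the 4454 genes tested without overlap control replicates 2, 3 and 1 were nearest in 29.8, 30.7 and 39.4%; the difference was not tested. The 12 held both risen genes such as TNC, SDC1, ITGA11 and ITGA8 and fallen ones such as LAMA2, VWF and ITGB4. Control libraries were also more scattered: the coefficient of variation was larger among control than among test libraries in 26 of 37 members (70.3%), as in 66.9% of all genes tested with reads in both groups. Its median over members was 12.9% in test libraries and 29.3% in control libraries, against 13.8% and 20.7% over those genes.

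**Figure D5:**
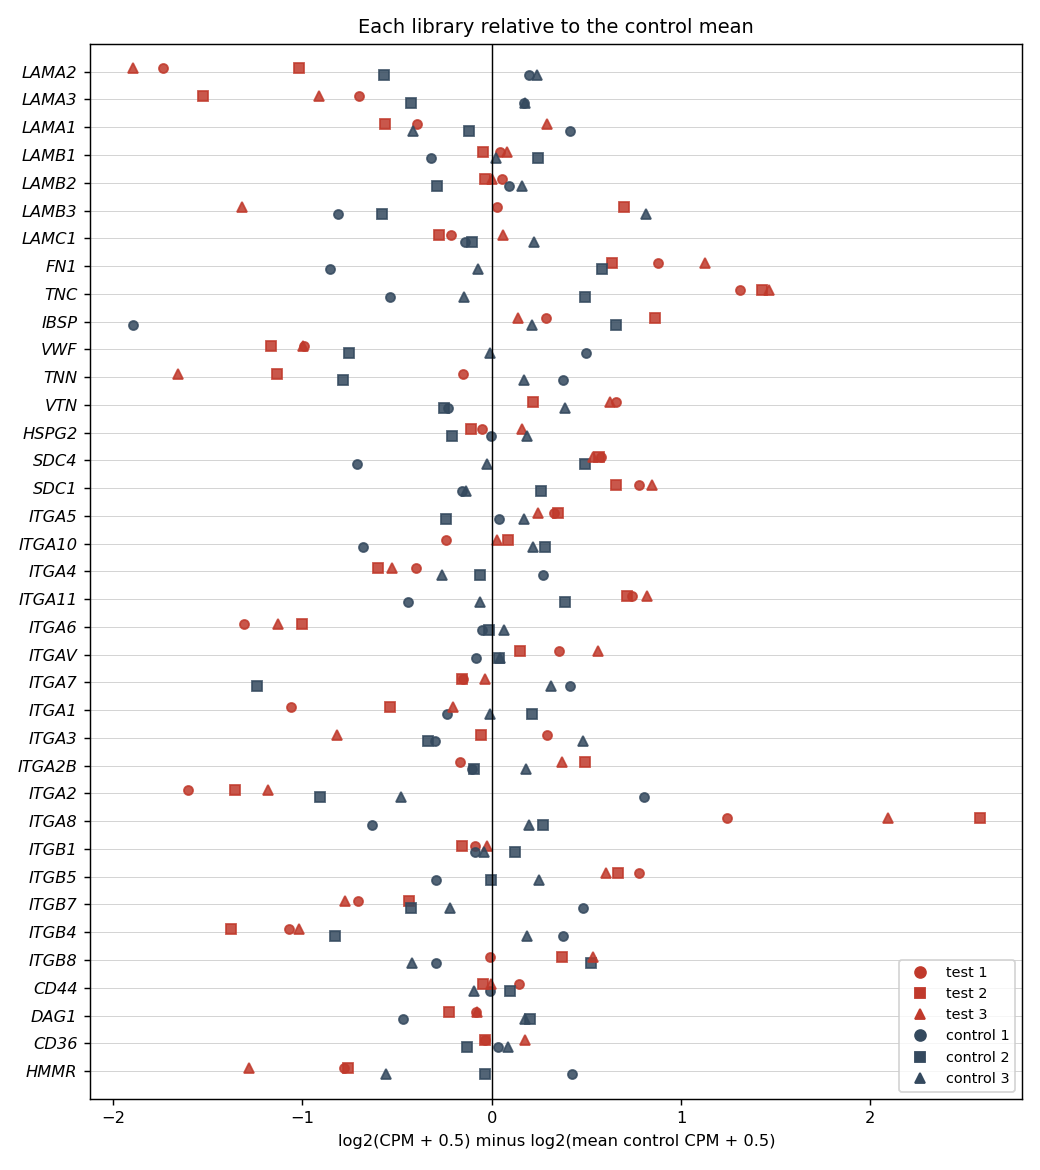
Level of each tested member in each library as log2(CPM + 0.5) minus the same for the control mean; red test libraries sit above dark control libraries within a row, and the marker shape gives the replicate number. Control replicate 2 (dark squares) is the nearest control to the red points in 12 of the 18 rows without overlap, and control replicate 1 (dark circles) is far left for IBSP, FN1 and SDC4.

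Other genes of the matrix and adhesion machinery gave the setting. Over all genes tested 13% were called. The share was 56.2% in the pathway genes left out, 22.2% in basement membrane partners, 9.52% in integrin adaptors and 12.5% in dystroglycan complex genes. It was 33.3% in integrins outside the pathway, 46.2% in other integrin ligands and 14.3% in further matrix receptors. Of the 16 tested genes left out of the same pathway, its collagens, thrombospondins and SPP1, 3 rose and 6 fell, THBS3 being among the higher (log2 fold change 2.80, edgeR adjusted p = 0.000377) and THBS4 and COL6A5 among the lower (-2.98 and -3.75, 0.000335 and 0.000993). Of 18 basement membrane partners, 2 rose and 2 fell. NID1, nidogen-1, which links laminin to type IV collagen, fell to 39.1 ± 2.03 CPM in test libraries, against 77.3 ± 14.4 CPM in control libraries (edgeR adjusted p = 0.00418), and FBLN1 and FBLN2, fibulins that bind matrix proteins, were higher by log2 fold changes of 2.95 and 1.63 (edgeR adjusted p = 0.000781 and 0.00303). Of 21 tested adaptors that join integrins to actin, 1 rose and 1 fell: BCAR1, a signalling scaffold, and TNS1, tensin-1 (log2 fold change 0.83 and -0.51, edgeR adjusted p = 0.00929 and 0.0253). Of 16 genes of the dystroglycan complex 2 rose, a share near that of all genes tested. They were POMGNT1 and LARGE2, enzymes that act on the sugars of dystroglycan (log2 fold change 0.75 and 2.32, edgeR adjusted p = 0.00607 and 0.0293). With a mean of at least 5 CPM required, 1 of 12 tested genes of this complex rose. Among the genes left out of the pathway, 3 were called lower without test replicate 1, 2 or 3 or control replicate 3, and 4 were called higher without control replicate 1. Without control replicate 2, 5 basement membrane partners and 4 dystroglycan complex genes were called higher; without a test library or control replicate 3, 1 basement membrane partner was called lower and 1 dystroglycan complex gene higher. BCAR1 was not called without test replicate 2 or 3, and TNS1 was not called without any 1 of the test libraries or control replicate 3.

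Of 9 integrin genes outside the pathway 2 rose, 1 fell and 6 were not called. ITGAX and ITGAD, myeloid alpha subunits that pair with ITGB2, had log2 fold changes of 0.96 and 2.71 and rose (edgeR adjusted p = 0.00378 and 0.0103), and ITGBL1, a secreted integrin-like protein, fell (-1.63, edgeR adjusted p = 0.0329). ITGB2 itself averaged 317 ± 27.5 CPM in test libraries and 280 ± 71.2 CPM in control libraries and was not called (edgeR adjusted p = 0.539). Macrophage markers went both ways, with 2 of 10 higher and 1 lower, and their sums were 2518 to 2866 CPM in test libraries and 3010 to 3169 CPM in control libraries, without overlap. All 6 tested giant cell and osteoclast markers rose, with sums of 7066 to 7399 CPM in test libraries and 3269 to 3774 CPM in control libraries. Neutrophil markers summed to 404 to 459 CPM in test libraries and 71.9 to 136 CPM in control libraries, and 3 of 6 rose. The part of these cell markers in the integrin values was not tested. Of 13 tested integrin ligands outside the pathway 5 rose and 1 fell; TGFBI and ANGPTL4 were among the higher (log2 fold change 1.77 and 2.09, edgeR adjusted p = 0.000182 and 0.000913) and POSTN, periostin, fell (-1.30, edgeR adjusted p = 0.00732). Of 14 further matrix receptors 2 rose, PLAUR, the urokinase receptor, and DDR1, a collagen receptor kinase (log2 fold change 1.17 and 0.92, edgeR adjusted p = 0.00177 and 0.0166). Without control replicate 2, 9 of the 13 ligands and 5 of the 14 receptors were called higher; without a test library 2 of the ligands were, and without test replicate 2 or 3, 1 of the receptors and 1 of the 9 integrin genes outside the pathway. ITGBL1, the only lower gene among those 9, was not called when any test library or control replicate 3 was dropped, and macrophage genes called higher ranged from 0 without test replicate 2 to 4 without control replicate 1.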

How the data were processed

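RNA-seq of 6 rabbit tissue samples was analysed from the raw counts per gene that the authors deposited. Per the labels' protocols, ribosomal RNA was removed (Ribo-Zero) and a TruSeq Stranded kit was used. The submitters' processing notes name cutadapt 1.9.3, HISAT2, Cuffdiff and rn6, a rat build, although gene identifiers are rabbit; the counting tool, strand setting and annotation release are not given in the sources used here. A second block of 6 normalized columns was not used.

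Counts were tested with edgeR 4.0.16 in R 4.3.3 (quasi-likelihood, TMM, filterByExpr with minimum count 10 and total 15, two-sided, Benjamini-Hochberg over 12740 genes, threshold 0.05). CPM use the TMM-normalized library size. Levels are not corrected for transcript length and are compared between groups, not genes. Standard errors were derived from the F statistic (absolute log2 fold change / √F). Counts carry no molecular identifiers. Alternatives used DESeq2 1.42.0 and limma 3.58.1, other filters, a replicate block, genomic gene length from RefSeq (36 of 37 tested members, 8880 of 12740 genes) and leaving out each library. The tests were checked on simulated counts.

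Members, roles, ligand classes and lists were chosen with earlier results of these data known. Named were all called members, the 3 with the highest mean in each role, untested members and up to 3 called genes per list with the smallest p. The remaining members were added, after their values were seen, so that every member is accounted for; ITGB2 was added likewise as the partner of 2 named genes.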

Additional observations from a re-analysis of the deposited data

How the results depend on the processing

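The 9 calls among members were 9 to 13 under other normalizations, filters, tests and the block. Members called lower numbered 8 with the DESeq2 Wald test in place of 4. Leaving out each library in turn gave 2 to 15 members called (1 to 7 higher, 1 to 8 lower), a median log2 fold change of members from -0.0539 to 0.0874 in place of 0.01, 446 to 2163 genes called in the whole table in place of 1655, and 37 to 88 called genes over the other lists in place of 61. Correction for gene length left 889 genes called, and 912 with the replicate block, among 8880 genes with a length; without the correction, a fit to those genes called 1200 (chosen after seeing the data). With that correction and the block, LAMA2 was not called (adjusted p = 0.0576). No called member changed direction in any of these fits.

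Replicate numbers were treated only as sample names in the main fit. Deviations of same-numbered test and control libraries correlated at 0.07, -0.02 and 0.03 for numbers 1 to 3. With 3 libraries per group, these values cannot show whether the numbers mark pairs. With the replicate block 12 members were called (6 higher, 6 lower) and 1681 genes in all; FN1, ITGA4 and HMMR were added (adjusted p = 0.0295, 0.0396 and 0.0337), and with the block and the length correction FN1 and HMMR (0.0362 and 0.0477). Depth limits the 11 tested members with under 100 reads in at least 1 library: LAMA1, LAMA2, LAMA3, LAMB3, TNN, VTN, ITGA2, ITGA2B, ITGA3, ITGA8 and ITGB8, of which LAMA2 and ITGA8 were called.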
